A study of Homo sapiens with 4 samples.

Results

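The olfactory receptor genes of families 6 to 14 were examined in the cell line OVCAR-3, which derives from a human ovarian carcinoma. They were taken as the transcript clusters (the probe groups that a gene array summarises into 1 value) whose only gene symbol in the platform's annotation starts with OR and a family number from 6 to 14. Symbols ending in P, which mark pseudogenes, were left out. The rule itself used names and no measured value, but the members were chosen with earlier results of these data known. It found 131 clusters for 124 genes among the 21214 clusters that carry a gene symbol. A set of 28 further clusters named several genes, at least 1 of them of these families, and 9 named a single pseudogene; both kinds stayed outside the members and are described separately.

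Olfactory receptors are G protein-coupled receptors that detect odorants in the nose, and they form the largest gene family of the human genome. In an olfactory neuron a receptor signals through the G protein subunit encoded by GNAL, the adenylyl cyclase encoded by ADCY3 and a cyclic nucleotide-gated channel. Each such neuron is known to use a single receptor gene, with the others packed into heterochromatin, and most cells outside the nose keep nearly the whole family off. Linker histone H1 proteins bind the nucleosome where DNA enters and leaves it and help to compact chromatin.

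The series compared 2 arrays of OVCAR-3 cells that received a vector lacking H1.3 with 2 arrays of OVCAR-3 cells overexpressing human H1.3, a linker histone variant. The titles call the replicates biological and add an (H) to H1.3 that the sources used here do not explain. Nothing in the labels says whether replicates were separate transfections or whether the cells were a clone, so a p-value here covers only array-to-array spread, and that spread may be technical. Values are log2 levels, each difference is the mean of the H1.3-labelled arrays less the mean of the vector-only ones, and a call means a limma p of under 0.05 after Benjamini-Hochberg adjustment over all 21214 clusters.

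H1-3, the gene of H1.3, measured 8.65 and 7.88 without the insert and 7.47 and 7.69 with it. It was thus not higher where the label says so (difference -0.69, adjusted p 0.319). Leaving out vector-only arrays 1 or 2 gave -0.30 or -1.07. Whether the probes of this cluster cover the vector insert is not known here, so these values cannot show whether H1.3 was overexpressed. Each direction given here is that of the library labelled H1.3. All 13 ovarian carcinoma markers were measured, 12 of them at or above the median level of the clusters tested, with KRT8, an epithelial keratin, at a mean of 12.93 and PAX8, a Müllerian transcription factor, at 11.10. Of these markers FOLR1, a folate receptor, fell by 1.26 (adjusted p 0.0291). By limma it stayed called with a robust intensity trend (0.0117), a further quantile normalization (0.0361) and arrays centred on their median (0.0396). It was not called with unnamed clusters tested as well (0.177), with the replicate number as a block (0.137) or without variance moderation (0.621). None of 5 leukocyte and 4 endothelial markers reached the median level, and 1 of 6 fibroblast markers did.

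A single member, OR7D2, was called higher, and 0 were called lower. Over all clusters tested 0.24% were called higher and 0.264% lower, or 0.504% in either direction. OR7D2 encodes an odorant receptor of family 7. The vector-only arrays measured 4.28 and 4.37, those labelled H1.3 measured 6.60 and 6.11, so the groups were far apart and did not overlap. The means were 4.33 ± 0.064 and 6.36 ± 0.35 (SD, n = 2 each). The rise was 2.03 ± 0.17 (SE) on the log2 scale, or 4.08-fold, with a limma adjusted p of 0.00956. It was the third largest among the 45 single-symbol clusters called higher.

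OR7D2 moved from above the middle of the receptor class to its top. Among the 131 members it ranked 40 and 38 in level on the vector-only arrays and 1 on both arrays labelled H1.3. Even there it stayed below the median of the clusters tested, 6.84 on each array: 45.8% and 38.0% of all clusters lay below it, against 12.6% and 13.2% on the vector-only arrays. The call rested on all 4 arrays, since leaving out any 1 of them ended it, with differences from 1.79 to 2.28 and adjusted p from 0.433 to 0.802. No cluster of any gene was called in those fits. The call was also lost when unnamed clusters were tested as well (adjusted p 0.107), with the replicate number as a block (0.128) and without variance moderation (0.610).

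**Figure D1:**
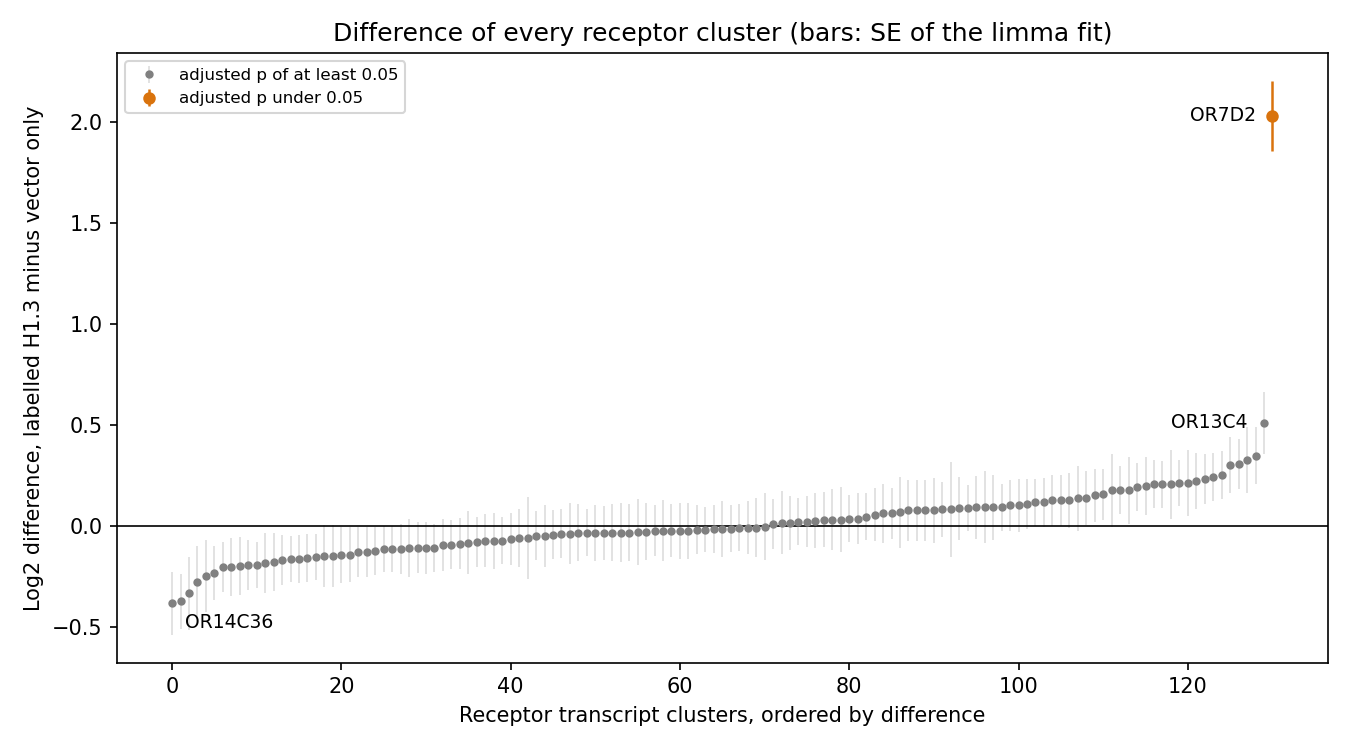
Log2 difference (labelled H1.3 minus vector only, y axis) of each of the 131 receptor clusters, ordered along the x axis by difference, with the SE of the limma fit as bars. OR7D2 stands alone at 2.03; the next, OR13C4, is at 0.51, and the lowest, OR14C36, is at -0.39.

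The stretch just upstream of OR7D2 is shown because this is the member that changed, beside OR7D4, its namesake in the same receptor run that was not called, and ZNF317, the expressed zinc finger gene next to OR7D2. The sequences are the 250 bases before the RefSeq gene start (GRCh38.p14, 5′ to 3′ on the gene's strand), with capitals marking CpG dinucleotides. They lie at chr19:9178729-9178978 (plus strand) for OR7D2, chr19:9219590-9219839 (minus strand) for OR7D4 and chr19:9140147-9140396 (plus strand) for ZNF317.
OR7D2: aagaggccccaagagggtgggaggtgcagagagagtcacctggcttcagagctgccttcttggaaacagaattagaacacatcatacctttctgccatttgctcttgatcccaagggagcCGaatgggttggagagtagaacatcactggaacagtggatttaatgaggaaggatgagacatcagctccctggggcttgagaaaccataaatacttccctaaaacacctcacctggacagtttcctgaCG
OR7D4: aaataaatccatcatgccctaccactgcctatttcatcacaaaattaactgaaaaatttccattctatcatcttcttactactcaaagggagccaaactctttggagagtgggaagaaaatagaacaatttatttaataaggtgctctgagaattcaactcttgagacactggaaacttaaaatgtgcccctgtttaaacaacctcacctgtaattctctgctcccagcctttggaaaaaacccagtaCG
ZNF317: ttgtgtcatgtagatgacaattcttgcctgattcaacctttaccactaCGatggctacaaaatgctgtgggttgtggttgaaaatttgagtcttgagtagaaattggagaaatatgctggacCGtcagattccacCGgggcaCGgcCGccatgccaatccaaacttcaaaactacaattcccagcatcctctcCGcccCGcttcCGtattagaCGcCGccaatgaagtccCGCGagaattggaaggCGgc

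OR7D2 had 2 CpG dinucleotides in this window, OR7D4 had 1 and ZNF317 had 13. The receptor genes as a class had CpG-poor windows. RefSeq windows were found for 106 of the 124 genes, 111 windows in all, with a median of 1 CpG and a range of 0 to 7; 27.9% held none. The median was 11 over all 35116 promoter windows and 21 over the windows of genes at or above the median level. OR7D2 did not stand out, since 44 of the 111 windows held at least as many CpG as its own.

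Short sequence motifs of factors known from receptor gene choice were searched in the same windows. TAATTA, a homeodomain core that reads the same on both strands, was in 17.1% of the members' windows and 4.35% of all windows, and was absent from all 3 sequences shown. CCCNNGGG, the core bound by early B-cell factors and also the same on both strands, was in 8.11% of the members' windows and 17.1% of all windows, and it occurred in that of OR7D2. TATAAA, searched on both strands, was in 27.9% against 10.7%, and in none of the sequences shown. The windows of the other receptor families were alike, with TAATTA in 21.6%, CCCNNGGG in 6.25% and TATAAA in 29.5%. Median GC content was 38.4% in the members' windows, 36.0% in those of the other families and 58.0% in all windows. The part of base composition in these shares was not tested. The first 3 transcribed bases were ATG in 37.8% of the members' windows, 44.9% of those of the other families and 2.29% of all. For receptors with ATG there, the RefSeq start is the start of the coding sequence and the window may not be the promoter. A match is a description of letters and does not mark a bound site.

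The rise of OR7D2 was not shared by the genes around it on chromosome 19. Of the 10 nearest measured genes on each side in RefSeq order, 0 of 20 were called, against 0.504% of all clusters. Their differences ran from -0.34 to 0.47, with a median of -0.053. They were positive in 8 and negative in 12, and 52.8% of all clusters were positive. ZNF317, the nearest on one side, was level at 8.44 and 8.50 against 8.47 and 8.46. On the other side OR7E24 measured 3.84 and 3.98 against 4.35 and 3.88, and OR7D4, the receptor for the steroid androstenone, measured 5.81 and 6.13 against 6.31 and 5.98. In both receptors the groups overlapped.

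The receptors of subfamily G upstream of ZNF317 also went without a call. OR7G2 measured 5.31 and 4.77 for vector only against 4.69 and 4.72, a difference of -0.34 that was -0.065 without vector-only replicate 1. OR7G1 measured 4.83 and 5.09 against 4.67 and 4.78, and OR7G3 measured 4.90 and 5.07 against 5.06 and 4.84. OR7G2 and OR7G1 were lower without overlap, by amounts near or below the spread of their own replicates, and OR7G3 overlapped. Without vector-only replicate 2 OR7G1 was at -0.11. The largest differences among the 20 neighbours were those of the zinc finger genes ZNF426 (0.47, adjusted p 0.465) and ZNF121 (0.36, adjusted p 0.279). ZNF426 measured 4.57 and 4.14 against 4.56 and 5.09, which overlap, and its difference was 0.21 without H1.3 replicate 2 and 0.26 without vector-only replicate 2.

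**Figure D2:**
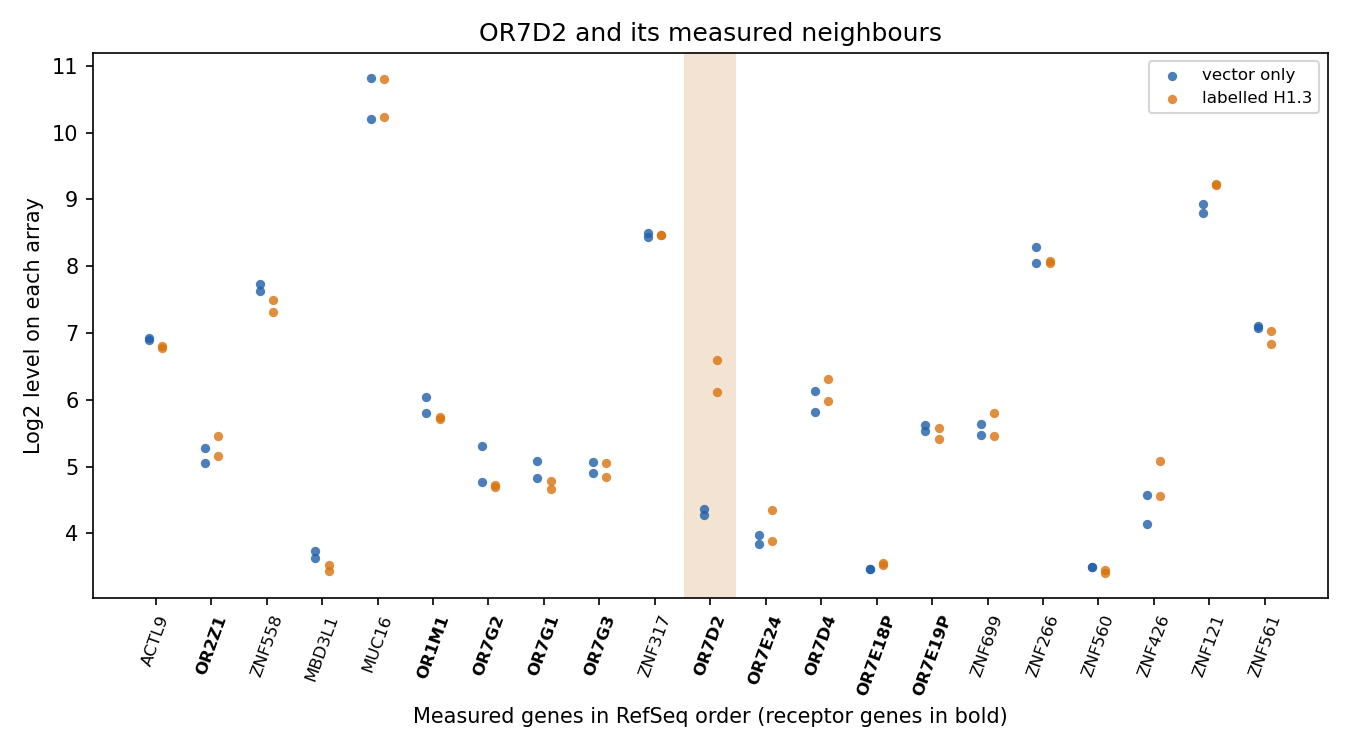
Log2 level on each array (y axis) of OR7D2 and the 10 nearest measured genes on each side, in RefSeq order (x axis, receptor genes in bold); each point is 1 array. The vector-only and H1.3 points lie apart at OR7D2 (4.28 and 4.37 against 6.60 and 6.11). Of the 20 neighbours 0 were called, against 0.504% of all clusters.

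The class as a whole was measured at the low end of the array. All 131 clusters had a mean level below the median of the clusters tested, and 124 of them, or 94.7%, lay below the lower quartile of 5.32. The members' levels ran from 2.50 to 6.06 with a median of 3.90, against a median of 6.84 over all clusters. On no array did a member exceed that array's median. No background probes were available here, so a level in this range cannot be called present or absent, and a filter that keeps clusters above the median level removes every member.

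The highest members were OR7D4 at a mean of 6.06, OR10G7 at 6.02, OR10S1 at 5.86, OR14C36 at 5.55, OR10H5 at 5.39 and OR10P1 at 5.37. Levels of different clusters depend on their probes, so this order is of signals and not of transcript amounts. OR10G7 measured 6.02 and 6.13 against 5.91 and 6.02, and OR10S1 measured 5.95 and 5.93 against 5.86 and 5.70. OR10H5 measured 5.12 and 5.56 against 5.57 and 5.29, and OR10P1 measured 5.30 and 5.45 against 5.35 and 5.37. The groups overlapped in OR10H5 and OR10P1, met at 6.02 in OR10G7, and were apart by less than 0.1 in OR10S1, whose difference was -0.16 and -0.080 without H1.3 replicate 2. The lowest member was OR6C70, at 2.57 and 2.58 with vector only against 2.45 and 2.39.

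**Figure D3:**
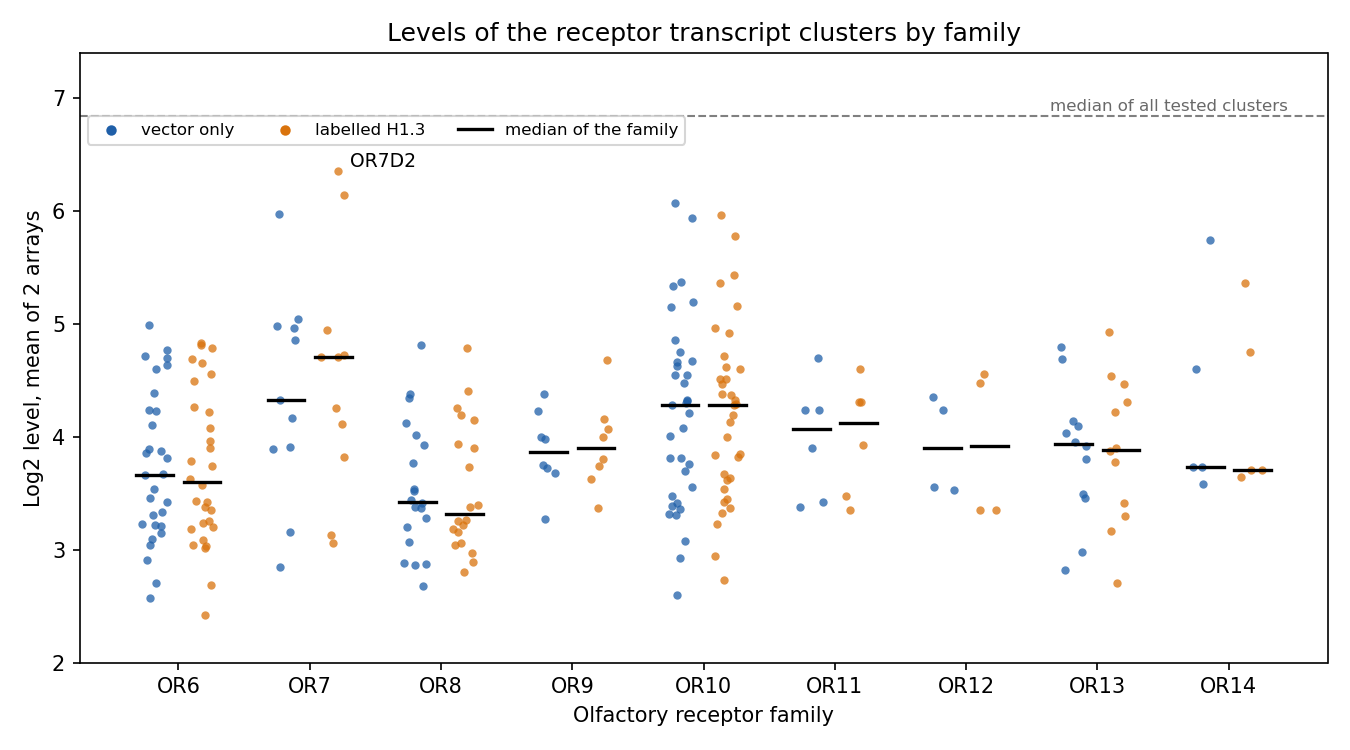
Log2 level of each receptor cluster (y axis, mean of 2 arrays) by family (x axis), with vector-only arrays in blue, arrays labelled H1.3 in orange and the family median as a black bar. All points lie below the dashed median of the clusters tested, 6.84, and OR7D2 is the highest point in the arrays labelled H1.3.

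Apart from OR7D2, the receptors differed little between the groups. The median difference over the 131 clusters was -0.015, with the middle of the distribution between -0.095 and 0.090. Over all clusters it was 0.015, between -0.105 and 0.125. Among the clusters below the median level, where every member lies, it was 0.035, between -0.065 and 0.135. Of the members 60 were positive and 71 negative. The positive share was 45.8% in the members, 52.8% in all clusters and 58.4% in those below the median level. The difference between these sets was not tested. Only 2 differed by at least 0.5 in either direction, OR7D2 and OR13C4, or 1.53%. Among all clusters 5.16% did so, and 3.74% of those below the median level. Past 1, OR7D2 was alone among the members (0.763%, against 0.768% of all clusters and 0.594% of those below the median level). An unadjusted limma p under 0.05 was reached by 6 members, or 4.58%, against 11.5% of all clusters and 7.98% of the clusters below the median level. Leaving out single arrays moved the members' median between -0.055 and 0.050.

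Replicates were no closer in the members than elsewhere. The 2 vector-only arrays differed by a median of 0.14 over the members and 0.13 over all clusters, and the 2 arrays labelled H1.3 by 0.17 and 0.15. The array medians of the members were 3.84 and 3.95 for vector only, 3.97 and 3.81 for H1.3, so replicates differed as much as groups. The widest gap between the arrays labelled H1.3 was that of OR13C5, at 4.61 and 3.83, with vector-only values of 4.09 and 4.19 inside that range.

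The groups did not overlap, with H1.3 higher, in 19 members or 14.5%, against 21.2% of all clusters, and with H1.3 lower in 19 or 14.5%, against 19.4%. Among the clusters below the median level, where every member lies, the shares were 20.7% and 12.8%, so the members' lower share was under the former background and above the latter. Behind OR7D2 the largest positive difference was that of OR13C4, which measured 4.02 and 3.89 against 4.65 and 4.28, or 0.51 ± 0.15 (SE) higher (adjusted p 0.230). Leaving out the first H1.3 array gave 0.33. OR9G4 measured 3.71 and 3.74 against 4.23 and 3.91 (0.35, or 0.19 likewise).

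Next came OR6T1 at 0.33, OR10A5 at 0.31 and OR9Q2 at 0.30, with adjusted p from 0.403 to 0.527. OR10A5 measured 3.34 and 3.29 against 3.71 and 3.53, OR6T1 measured 4.36 and 4.10 against 4.74 and 4.37, and OR9Q2 measured 4.30 and 4.46 against 4.81 and 4.55. In each of these the first array labelled H1.3 was the highest of the 4. In OR6T1 and OR9Q2 the second lay within 0.1 of a vector-only array, and without the first their differences were 0.14 and 0.17.

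In the other direction OR14C36 measured 5.94 and 5.55 against 5.30 and 5.42, or -0.39 ± 0.16 (SE; adjusted p 0.404). It was -0.19 without vector-only replicate 1. OR6Q1 measured 4.55 and 4.73 against 4.15 and 4.38 (-0.38, adjusted p 0.343). OR10G3 measured 4.69 and 4.65 against 4.56 and 4.37, and OR12D2 measured 3.72 and 3.39 against 3.37 and 3.33 on the cluster with the larger difference, -0.21 in both genes. OR12D2 was at -0.040 without vector-only replicate 1, and OR10G3 at -0.11 without H1.3 replicate 2. None of these passed, and the 2 clusters of OR12D2 gave nearly the same values.

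By family, medians of the difference lay between -0.030 and 0.052. Family 10 was the largest, with 35 clusters of 33 genes, differences from -0.21 to 0.31 and a median of -0.015. Family 6 had 30 clusters of 29 genes, from -0.38 to 0.33, and family 8 had 20 clusters of 20 genes, from -0.25 to 0.22. In none of these 3 families did a cluster pass. Family 13, with 12 clusters, ran from -0.20 to 0.51 and was uncalled as well.

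Family 7, which holds OR7D2, had 11 clusters and a median of -0.030, with 5 positive and 6 negative. Its other 10 genes ran from -0.34, in OR7G2, to 0.21, in OR7A10 and OR7E24. Family 9 had 8 clusters (-0.20 to 0.35), family 11 had 6 (-0.095 to 0.10), family 14 had 5 (-0.39 to 0.16) and family 12 had 4 (-0.21 to 0.24). In these smaller families no cluster other than that of OR7D2 was called.

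For 3 receptors the known odorant gives a point of reference. OR6A2, linked to the aldehyde smell of coriander, measured 3.24 and 3.19 against 3.39 and 3.09. OR8D1, which responds to the caramel-like odorant sotolone, measured 3.28 and 3.29 against 3.27 and 3.26. OR11A1, which responds to the earthy odorant 2-ethylfenchol, measured 4.16 and 4.31 against 4.49 and 4.13. These 3 were picked after their values were seen and do not stand for receptors with known ligands as a group. The groups overlapped in OR6A2 and OR11A1 and differed by 0.020 in OR8D1.

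Olfactory receptor genes stand side by side in runs on many chromosomes. In RefSeq order the 124 genes fell into 26 runs, a run being receptor genes with at most 3 protein-coding genes of other kinds between successive members, and 11 runs held at least 5 of them. The longest in members, 17 genes between ZNF202 and PANX3 on chromosome 11, lay where the expressed genes were lower in the arrays labelled H1.3. The 20 nearest expressed genes, 10 on each side with a level at or above the median, had a median difference of -0.59, 19 of them negative. Only 1 of these 20 was called, against 0.504% of all clusters. The 17 receptors had a median of 0.010, with 9 positive and 8 negative.

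Level went along with this contrast. The 20 nearest genes of other kinds with levels below the median, on the same flanks, had a median difference of 0.032, 9 of them negative, at a median level of 5.65. The expressed neighbours had a median level of 7.91 and the receptors of 4.04. The part of signal level in the receptors' flat values was not tested. Without single arrays the median ran from -0.060 to 0.075 for the receptors and from -0.73 to -0.45 for the expressed neighbours.

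Within that run OR10G7 and OR10S1, the brightest, differed by -0.11 and -0.16, while OR6T1 and OR8A1 differed by 0.33 and 0.22. OR8G5 had the lowest value, -0.25, at 3.15 and 3.67 against 3.14 and 3.18. None was called. Thus neither the direction nor the size of the neighbours' shift was seen in the receptors' medians.

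The other runs showed smaller contrasts. Between SELENOH and LPXN on chromosome 11, 6 receptors had a median of -0.043 beside -0.21 in the expressed neighbours. Between NUP160 and LRRC55 on the same chromosome, 12 receptors of a run of 127 receptor genes and pseudogenes had 0.025 beside -0.11. On chromosome 1, 13 receptors between CD1E and MNDA had 0.090 beside 0.18, and 7 between NLRP3 and SH3BP5L had -0.060 beside 0.15. The signs of receptors and neighbours thus matched in some runs and not in others.

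The 14 receptors between NEUROD4 and TMT1B on chromosome 12, most of them of subfamily 6C, had a median of -0.038 beside -0.050. On chromosome 9 the 8 receptors between SMC2 and NIPSNAP3A, which include OR13C4, had 0.033 beside 0.11. The run of OR7D2, between ACTL9 and ZNF699, had a median of 0.070 over 6 receptors and of 0.002 over its expressed neighbours. The remaining runs, on chromosomes 6 and 19 with 5 receptors each, had medians from -0.030 to 0.085 beside neighbour medians from 0.008 to 0.077. Single expressed neighbours of the chromosome 6 run, between ZNF311 and GABBR1, ran from -3.94 to 0.705, and 1 of 20 was called.

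**Figure D4:**
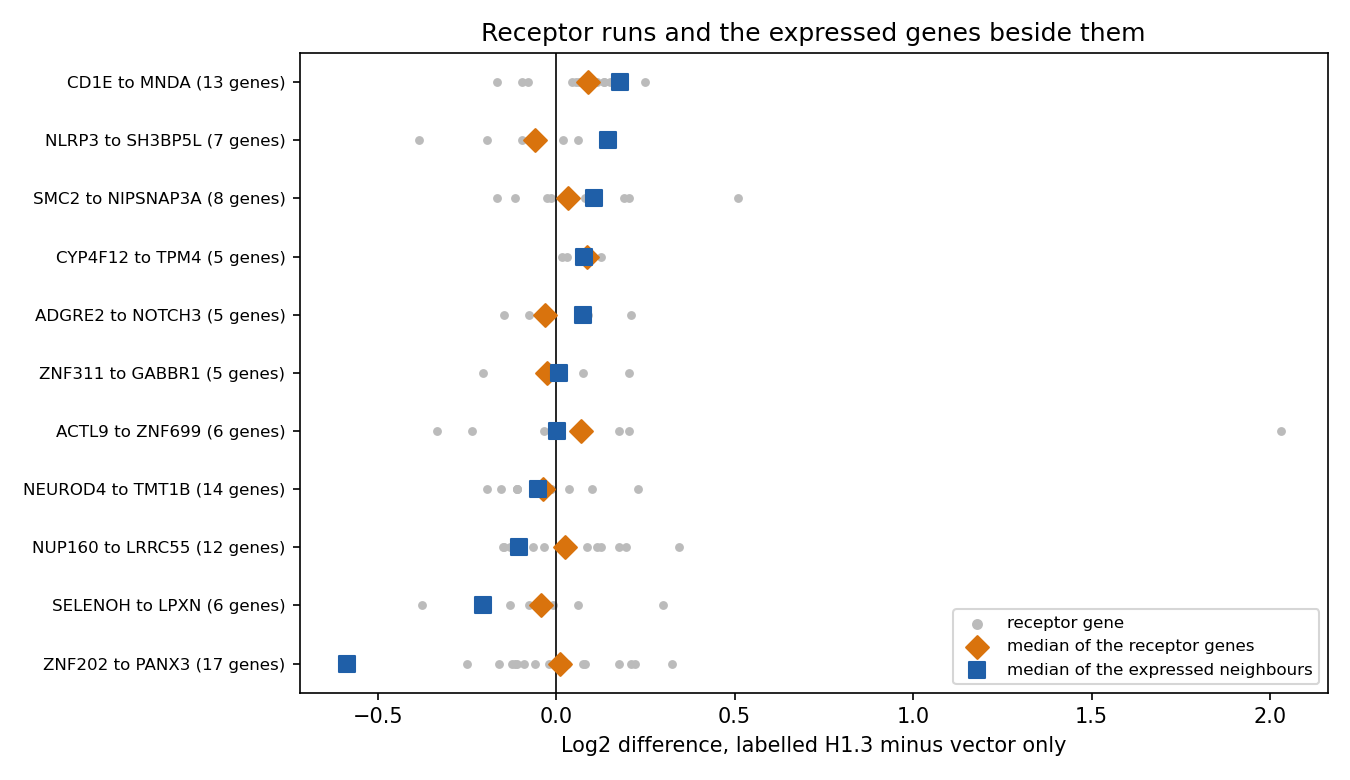
Log2 difference (labelled H1.3 minus vector only, x axis) of each receptor gene (grey), of the median of the receptors (orange) and of the median of up to 20 expressed neighbours (blue), for the 11 runs with at least 5 receptors (y axis, named by the flanking genes). At ZNF202 to PANX3 the neighbours' median is -0.59 and the receptors' 0.010; the isolated grey point at 2.03 is OR7D2.

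Several clusters were not independent of each other. The 6 genes OR10C1, OR11A1, OR12D2, OR12D3, OR14J1 and OR6C4 had more than 1 cluster, and in OR11A1, OR14J1 and OR10C1 a pair of clusters carried the same value on every array. With 1 cluster per gene the median difference was again -0.015. The clusters of OR6C4 did not match: one measured 2.92 and 3.27 against 3.10 and 3.07, the other 4.53 and 4.68 against 4.90 and 4.77. The annotation lists 3 accessions for the former, 1 of them a RefSeq mRNA, and 6 for the latter, with no RefSeq mRNA and none in common.

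The brightest clusters with a receptor name were outside the members. A group of 12 clusters named pseudogenes of subfamily 7E together with DAPL1, a gene of another kind, at levels from 8.24 to 9.08 on single arrays. Their signal cannot be assigned to a receptor, since each also names DAPL1. Of the 12 clusters, 6 also listed OR7E24, whose own cluster had a mean of only 4.01. Their differences ran from -0.30 to 0.025 with 11 of 12 negative, and 0 were called. Most of these names recur across the 12 clusters, so the clusters are not independent measurements.

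A further 5 clusters of subfamily 7E without DAPL1 had mean levels from 5.94 to 7.18 and differences from -0.10 to -0.005. The 11 clusters that named several receptors of other subfamilies, such as OR8B2 with OR8B3, lay between 2.95 and 4.80 like the members, with differences from -0.055 to 0.21. The 9 single pseudogene clusters lay between 3.50 and 6.77. The largest difference there was that of OR7E13P, -0.36 with an adjusted p of 0.331. None of the 28 clusters with several names and none of the 9 pseudogene clusters passed.

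The remaining olfactory receptors, families 1 to 5 and 51 to 56, gave a similar picture without a member like OR7D2. Of their 229 clusters 0 were called. An unadjusted limma p under 0.05 was reached by 9, or 3.93%, against 11.5% of all clusters and 7.98% of those below the median level. The median level of these families was 3.95, with 217 clusters below the lower quartile of all clusters. The median difference was 0.030, with 135 positive and 91 negative, and single values ran from -0.49, in OR1D2, to 0.48, in OR2AE1. OR1D2 measured 4.02 and 4.34 against 3.76 and 3.62, and OR2AE1 measured 4.58 and 4.80 against 5.27 and 5.06. Their medians in the leave-one-out fits ran from -0.020 to 0.080, and the difference between these families and families 6 to 14 was not tested.

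Genes that serve the receptors in the nose were not called either. Of 19 measured genes of olfactory signalling 0 passed limma over all clusters, and 2 of the 19 had an unadjusted p under 0.05. Over all clusters 11.5% had such a p. The list's median difference was 0.095, with 14 positive and 5 negative, against 0.015 over all clusters. The G protein gene GNAL measured 5.81 and 5.77 against 5.82 and 5.98, and the cyclase gene ADCY3 measured 6.98 and 7.0 against 7.19 and 7.09. CNGA2, a subunit of the olfactory channel, measured 4.47 and 4.56 against 4.61 and 4.59. RTP1 and RTP2, chaperones that carry receptors to the cell surface, differed by 0.035 and -0.11.

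The members of that list with the smallest p were SLC12A2, the chloride importer of olfactory neurons and many epithelia, and STOML3, a stomatin-like protein of olfactory cilia. SLC12A2 measured 10.38 and 10.08 against 11.38 and 10.73, 0.83 apart (adjusted p 0.182; 0.50 without H1.3 replicate 1). STOML3 measured 4.48 and 4.41 against 4.20 and 4.13, or -0.28 (adjusted p 0.415). Of 9 measured markers of the olfactory epithelium, 2 were at or above the median level. They were NCAM1, a cell adhesion molecule not confined to that tissue (-0.86, adjusted p 0.127), and OMP, the marker of mature olfactory neurons, at a mean of 6.99 and a difference of -0.040.

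Regulators of receptor gene choice were measured for 10 of 11 listed genes, and 0 passed, against 0.504% of all clusters. EBF3, an early B-cell factor, had the smallest p, at 7.41 and 7.02 against 6.10 and 6.38, or -0.98 ± 0.17 (SE, adjusted p 0.0795). With a robust intensity trend it passed (0.0380). It did not pass at 0.05 after a further quantile normalization (0.0888), with arrays centred on their median (0.108) or with all transcript clusters tested (0.249). The same held with the replicate block (0.258) and without moderation (0.650). Its difference ran from -1.17 to -0.78 without single arrays. LHX2, a homeodomain factor needed for receptor expression, measured 6.26 and 6.35 against 6.52 and 6.56 (0.24, adjusted p 0.512). Of 13 genes of the heterochromatin that covers receptor genes, 0 passed, beside the same 0.504%, with a median difference of 0.045. LBR, the lamin B receptor that tethers heterochromatin to the nuclear envelope, measured 9.60 and 9.60 against 9.98 and 9.94 (0.36, adjusted p 0.255). In these lists only EBF3 (0.000637) and LBR (0.0147) had an unadjusted limma p under 0.05, which 11.5% of all clusters had.

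KMT5B, a histone H4 lysine methyltransferase, measured 9.04 and 8.93 against 8.77 and 8.65 (-0.28, adjusted p 0.448). Chemoreceptors of other families also lay low, with 36 genes measured, a median level of 4.28, 0 calls by limma and 1 gene at an unadjusted p under 0.05. Over all clusters 11.5% had such a p, and 7.98% of those below the median level. The chemoreceptors' median difference was 0.088, with 23 positive and 13 negative. The bitter taste receptor gene TAS2R3 measured 4.51 and 5.19 against 5.34 and 5.55 (0.60, adjusted p 0.351; 0.26 without vector-only replicate 1), and TAS2R31 differed by -0.34 (adjusted p 0.437; -0.18 without H1.3 replicate 1).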

How the data were processed

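RNA from 4 samples of OVCAR-3 cells was hybridised to 1-colour Affymetrix arrays, per the labels. The authors deposited log2 values for 33297 transcript clusters to 2 decimals; the submitters' processing notes list Affymetrix Expression Console and RMA, with version and build not given in the sources used here. No probe intensity was used, so background could not be examined, and the number of arrays limits the precision. The series text names an exon array, while the identifiers are those of a gene array's annotation.

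Gene names came from that annotation, updated through gene identifiers to RefSeq GRCh38.p14 (19429 of 19460 single-symbol clusters matched; all 131 members did). The test was limma's (version 3.58.1, R 4.3.3; lmFit, eBayes, two-sided), with Benjamini-Hochberg adjustment over 21214 named clusters, 2 residual and 5.16 prior degrees of freedom and a median SE of 0.13. The steps were tested on simulated data. The members and lists were chosen with earlier results of these data known; the neighbour, promoter and shared-cluster descriptions and the receptors with known ligands were chosen after values were seen. Genes named are called members, the 6 largest positive and negative differences without overlap, the 6 highest levels, the passing or 2 smallest-p genes of each pathway list, and flanking genes; of several clusters the brightest stands for a list gene. Similarity of receptor proteins was not analysed here. Alternatives changed moderation, scaling, filter, clusters tested, threshold, block and arrays. Figures used matplotlib 3.10.9 in Python 3.11.15.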

Additional observations from a re-analysis of the deposited data

How the results depend on the processing

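The call of OR7D2 (1 member higher, 0 lower) held with a robust intensity trend, a further quantile normalization, arrays centred on their median, single-symbol clusters only and both other thresholds. It was lost, leaving 0 members higher, without moderation and with all transcript clusters tested. The call was also lost in every leave-one-out fit, where a lone array borrows the spread of the other group. The cause of these losses was not tested. Members were left out altogether by the filter on the median level. Over all clusters, 51 were higher and 56 lower; a robust trend made this 107 and 138, no moderation 6 and 3, another quantile step 29 higher, centring 19 and 31, dropping dim clusters 6 and 19, testing the unnamed ones too 1 and 3, an adjusted threshold of 0.10 135 and 176, a 1.5-fold change at unadjusted p below 0.05 282 and 401, and leave-one-out fits 0 to 0. Olfactory signalling had 1 call, SLC12A2, at that unadjusted threshold and 0 otherwise.

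When a replicate block was added, limma called 0 clusters higher, 0 lower and 0 members higher, with 2195 clusters under an unadjusted p of 0.05. Same-numbered arrays were not treated as pairs: their deviations correlated at 0.06, and no label names a common batch.

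The members' median ran from -0.055 to 0.050 and that of the other receptor families from -0.020 to 0.080 without single arrays. Differences near 0 changed sign: ZNF317 was 0.013 after a further quantile normalization, and in leave-one-out fits ZNF317 ran from -0.035 to 0.025, OR10H5 from -0.13 to 0.31, OR10P1 from -0.090 to 0.060, OR7G3 from -0.15 to 0.075, OR7E24 from -0.030 to 0.44 and OMP from -0.23 to 0.15. For the run between ZNF202 and PANX3, leave-one-out values, chosen after seeing the data, ran from -0.060 to 0.065 for the low-level neighbours.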
